A study of Homo sapiens with 12 samples.

Results

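GPATCH11, NUDT4B, SIPA1L2, SDHAF1, OXLD1, EYA1, FLG and CENATAC are 8 genes whose RNA was lower after interferon beta in HT1080 cells, in 1 or both of the lines studied. They are 8 of the 60669 identifiers in the count table and were chosen by their counts with IFNB against untreated in 1 or both lines, so their interferon values describe the choice and carry no test. All 8 passed the filter on low counts and were among the 16393 genes fitted. HT1080 is a human fibrosarcoma line, and all cells carried dCas9, a Cas9 that binds DNA without cutting it, under blasticidin and puromycin selection. GFP cells carried a control guide RNA against GFP (dCas9_CRISPRi_GFP), and LTR8B cells a guide against a retroviral LTR8B element within SP140 (dCas9_CRISPRi_LTR8B.SP140). Each line was left untreated or given 10 U/mL IFNB for 4 h, with 2 libraries per GFP group and 4 per LTR8B group. The labels do not say whether a line was 1 clone or whether replicates were separate cultures, so the error below may be technical.

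Interferon beta binds a receptor on the cell surface and acts through the kinases JAK1 and TYK2 and transcription factors that bind interferon-stimulated response elements and raise many antiviral genes. Repression of other genes is a smaller side of the response. The 8 genes have unlike roles. NUDT4B belongs to a family of hydrolases that cleave diphosphoinositol polyphosphates, SIPA1L2 is a GTPase-activating protein for Rap, SDHAF1 is a mitochondrial assembly factor of succinate dehydrogenase, and OXLD1 has an oxidoreductase-like domain. EYA1 is a transcriptional co-activator and phosphatase, FLG encodes filaggrin of the cornified skin layer, CENATAC takes part in minor intron splicing, and GPATCH11 carries a G-patch domain, found in RNA-processing proteins.

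Total counts ran from 12404270 to 28801579 per library. SP140 stood at 29.8 to 32.0 CPM in the GFP libraries and at 0.515 to 1.84 CPM in the LTR8B libraries, where CPM is counts per 1e+06 counts after TMM scaling. All 39 tested genes of a core interferon-stimulated list rose in both lines, with median log2 fold changes of 4.57 in GFP cells and 4.54 in LTR8B cells. Of the fibroblast and mesenchymal markers, 6 of 10 had a mean of at least 1 CPM, among them VIM and FN1, with a summed level of 3794 to 4510 CPM, while COL3A1, LUM and THY1 were near 0.

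Sequences are shown for 3 members whose values bear on how their RNA can be read or on what lies at their start. The first is the opening of the NUDT4B coding sequence (coding bases 1 to 90, GENCODE release 29), which is identical in its parent gene NUDT4. The second is the stretch between the GENCODE release 29 starts of GPATCH11 and of HEATR5B, which are read in opposite directions (chr2:37084343-37084450, plus strand, GRCh38.p14). The third is the FLG promoter, the 250 bases before its RefSeq start (chr1:152325240-152325489, minus strand, GRCh38.p14). Capitals mark letters within the motifs named after the sequences. The last capitals before the GENCODE start of GPATCH11 open a CCAAT box that runs past that start. The whole box lies before the RefSeq start of GPATCH11, which follows base 37084517.
NUDT4B and NUDT4: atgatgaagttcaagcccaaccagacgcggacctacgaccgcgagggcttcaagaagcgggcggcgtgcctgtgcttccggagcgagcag
GPATCH11 and HEATR5B: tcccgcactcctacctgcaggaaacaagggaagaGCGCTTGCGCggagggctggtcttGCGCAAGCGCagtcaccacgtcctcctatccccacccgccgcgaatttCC
FLG: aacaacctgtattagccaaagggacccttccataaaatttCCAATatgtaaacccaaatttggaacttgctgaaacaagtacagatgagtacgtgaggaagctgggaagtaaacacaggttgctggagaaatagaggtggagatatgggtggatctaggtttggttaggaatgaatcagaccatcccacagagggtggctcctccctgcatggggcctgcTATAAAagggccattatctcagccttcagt

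The promoter table of RefSeq held 7 of the 8 genes, all but EYA1. Motifs were searched on both strands in the 250 bases before each RefSeq start, and shares are of 35116 promoters of that length. RefSeq starts can differ from the GENCODE starts given below. For SIPA1L2 the bases searched (chr1:232630134-232630383, minus strand) lie far upstream of its GENCODE start at 232561558. The core of the interferon-stimulated response element (GAAA, any 2 bases, GAAA), present in 3.02% of promoters, was found in 0 of 7, and the STAT motif TTCNNNGAA, present in 6.57%, in 0 of 7. GPATCH11 held 2 matches to the NRF1 motif (GCGCA, any base, GCGC; 5.07% of promoters), both in the stretch shown, and 1 match to the ETS motif CCGGAAG (8.52%). FLG held the TATA box TATAAA (10.7%) and a CCAAT box (32.0%), while CCAAT was present in 5 of 7 promoters and the GC box GGGCGG (42.6%) in 5 of 7. The E-box CACGTG (6.34%) was found in 0 of 7. The FLG promoter had a GC content of 45.6% and 1 CG, against a median of 58.0% over all promoters and 81.2% in SIPA1L2.

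In GFP cells, 5 members lay past the threshold for lower RNA (adjusted p under 0.05, edgeR's quasi-likelihood test), namely GPATCH11, NUDT4B, SIPA1L2, SDHAF1 and OXLD1. In the same contrast 22 of all tested genes (0.134%) were lower and 502 (3.06%) higher. In LTR8B cells 4 members lay past it, namely GPATCH11, EYA1, FLG and CENATAC, against 79 of all tested genes (0.482%) lower and 658 (4.01%) higher. GPATCH11 alone was past it in both lines, where 10 genes were, the others being SNAI2, EGR1, CYREN, ACTR3B, MYC, IER3, OTUD3, ENC1 and GPR39. Every IFNB library was below every untreated library for 7 members in GFP cells (21.9% of all tested genes) and for 5 in LTR8B cells (2.96%). These counts follow from how the genes were chosen.

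**Figure D1:**
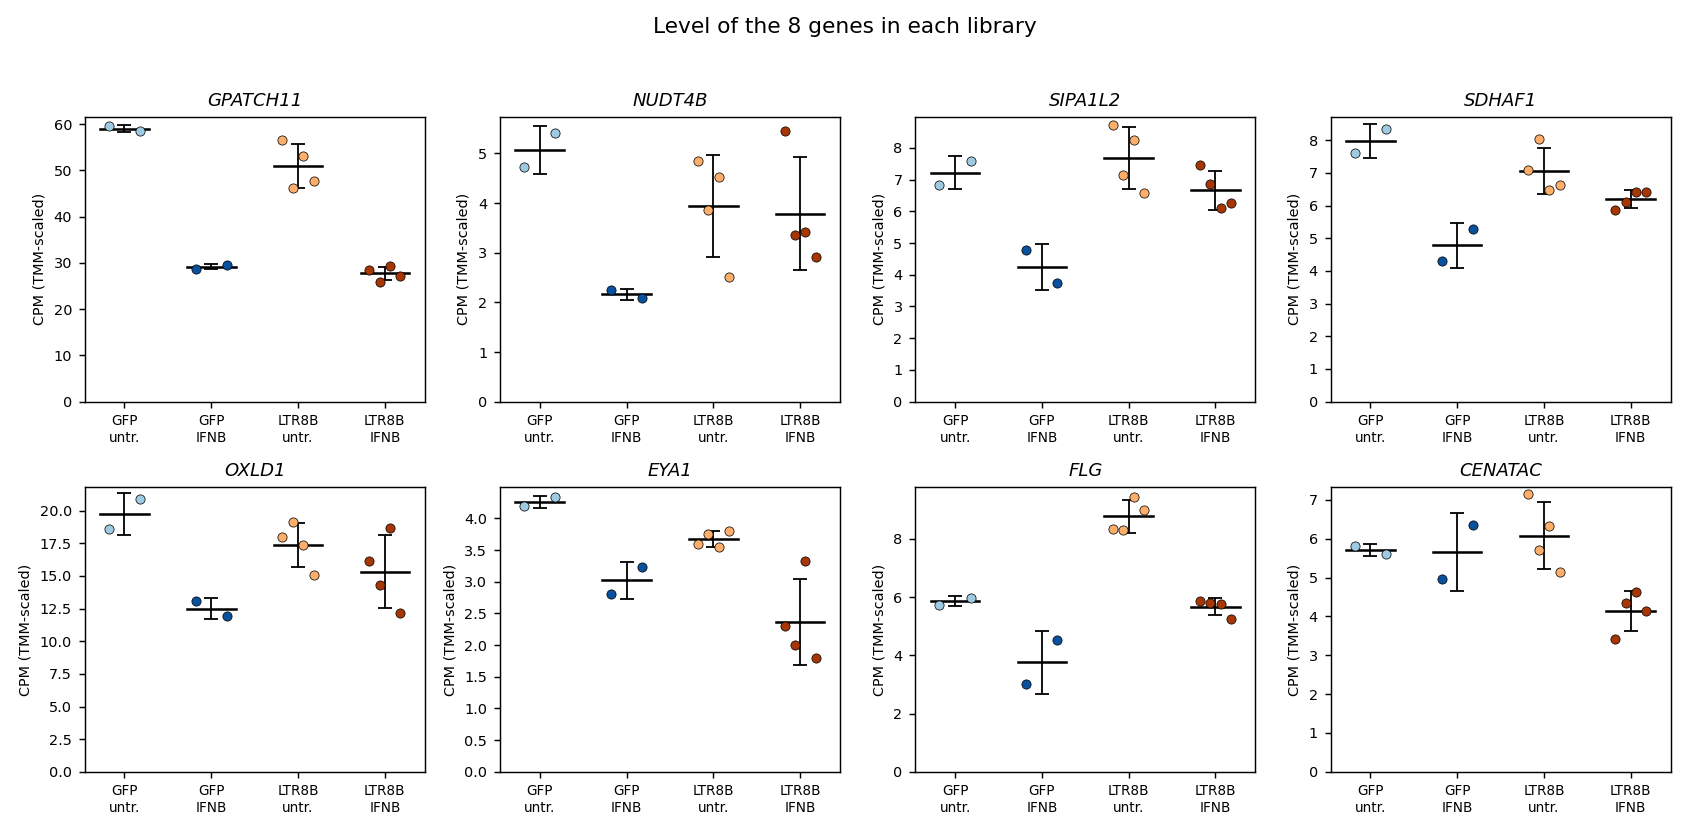
Level of each of the 8 genes in every library (CPM, TMM-scaled, axes from 0), by guide and treatment; bars are the mean and error bars the SD (n = 2 for GFP groups, n = 4 for LTR8B groups). GPATCH11 is the most abundant and is lower with IFNB in both lines, and FLG is higher in LTR8B than in GFP cells with and without IFNB.

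GPATCH11 (ENSG00000152133.15, chromosome 2, 37084451 to 37099244, plus strand) had the most RNA of the members, with a mean of 40.9 CPM over the 12 libraries, above 67.7% of tested genes. In GFP cells its level was 59.6 and 58.5 CPM untreated and 28.8 and 29.6 CPM with IFNB. In LTR8B cells it was 56.6, 46.2, 53.1 and 47.8 CPM untreated and 28.5, 25.9, 29.3 and 27.2 CPM with IFNB. The treated libraries lay between 25.9 and 29.6 CPM in both lines, well under the lowest untreated library. In such bulk RNA, fewer cells with the transcript and less of it per cell cannot be told apart. With IFNB, 49.5% of the untreated level was left in GFP cells and 54.4% in LTR8B cells. The log2 fold changes were -1.02 (SE 0.10) and -0.88 (SE 0.07), the lowest of the 10 genes that were lower in both lines. The difference between the responses was 0.13 (SE 0.12) on the log2 scale.

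HEATR5B and EIF2AK2 lie at the 2 ends of GPATCH11. HEATR5B, a HEAT-repeat protein, starts 109 bases away on the other strand, and its level was 34.7 ± 1.5 CPM untreated and 30.4 ± 0.507 CPM with IFNB in GFP cells (SD, n = 2). In LTR8B cells HEATR5B had 40.3 ± 2.98 and 35.6 ± 2.39 CPM (SD, n = 4), and neither IFNB contrast passed (edgeR adjusted p = 0.501 and 0.262). EIF2AK2, which encodes the antiviral kinase PKR, is read from the other strand and overlaps the 3′ end of GPATCH11 by 35 bases. EIF2AK2 rose from 82.8 ± 5.09 to 559.6 ± 52.7 CPM in GFP cells (SD, n = 2; log2 fold change 2.76, SE 0.11, edgeR adjusted p = 5.19e-12) and from 93.2 ± 10.6 to 496.6 ± 19.5 CPM in LTR8B cells (SD, n = 4; 2.41, SE 0.08, edgeR adjusted p = 1.17e-13). Whether the overlap bears on the GPATCH11 values was not tested, and the strand used in counting is not given in the sources used here.

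**Figure D2:**
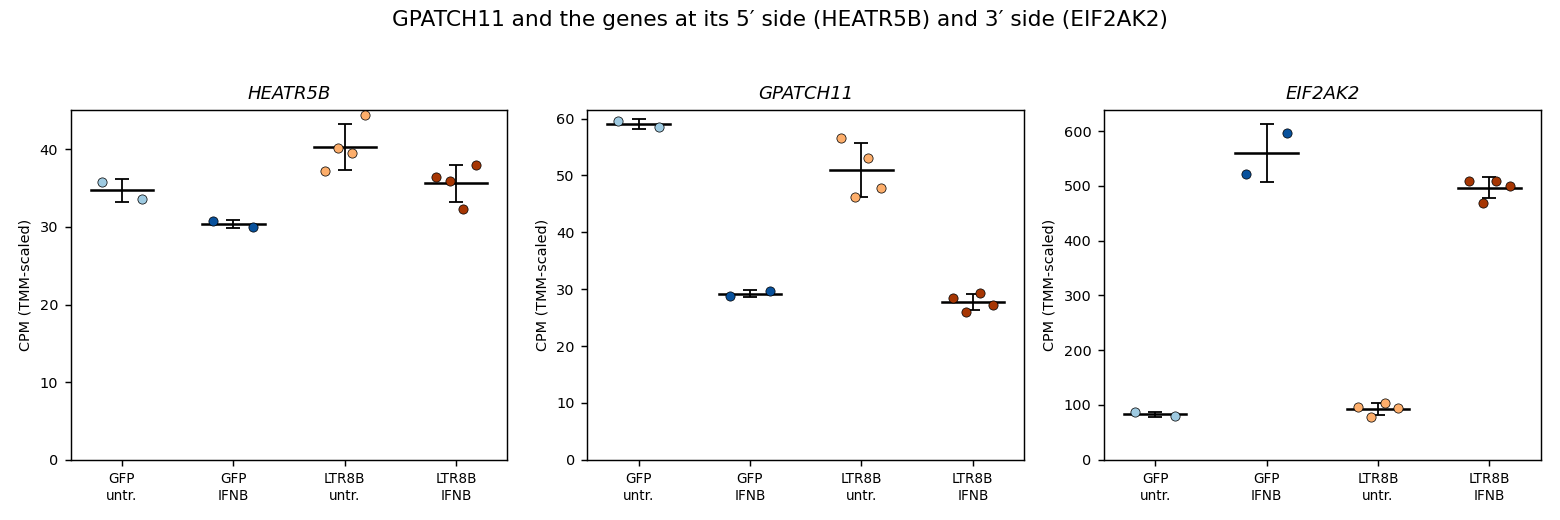
Level (CPM, TMM-scaled, axes from 0) of HEATR5B, GPATCH11 and EIF2AK2 in every library by guide and treatment, with mean and SD. GPATCH11 is lower and EIF2AK2 higher in all IFNB libraries than in all untreated libraries of the same line, while HEATR5B passed in neither line.

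Genes placed as GPATCH11 is were listed after its values were seen. The counts and medians that follow include GPATCH11 itself, which was chosen for its fall. Genes that were themselves raised at least 2-fold in both lines (211 genes) were left out of the list. Of the other tested genes, 14, GPATCH11 among them, end within 1 kb of the end of such a raised gene on the other strand. The list was thus short of rising genes, while the medians over all genes include the raised ones. In GFP cells 1 of the 14 was lower (GPATCH11) and 1 higher (SHISA5), with a median log2 fold change of -0.15 against -0.0059 over all genes. In LTR8B cells 2 were lower (GPATCH11 and ACO1) and 2 higher (SHISA5 and INKA1), with a median of 0.01 against -0.01.

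NUDT4B (ENSG00000177144.7, chromosome 1, 148748894 to 148750099, plus strand) is a copy of NUDT4 with 1 exon. Its level in GFP cells was 4.72 and 5.42 CPM untreated and 2.24 and 2.09 CPM with IFNB, and the groups did not overlap. In LTR8B cells it was 4.84, 3.86, 4.52 and 2.52 CPM untreated and 5.46, 3.36, 3.42 and 2.92 CPM with IFNB, and the groups overlapped. The log2 fold changes were -1.22 (SE 0.30) and -0.06 (SE 0.21), and 96 of the tested genes had a lower value in GFP cells. These values rest on 42 to 135 counts per library.

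The NUDT4B row cannot be read apart from NUDT4. Of its 1176 words of 31 bases, 1145 (97.4%) also occur in NUDT4 transcripts, and the 543 coding bases of both genes are identical. The remaining words trace to 1 substitution outside the coding part, A1041T (NUDT4 base, position from the 5′ end of the NUDT4B transcript, NUDT4B base). All 516 words of NUDT4P2, a processed pseudogene on chromosome 1, also occur in both NUDT4B and NUDT4. NUDT4P2 had 5.21 ± 0.0962 CPM untreated and 4.94 ± 0.0438 CPM with IFNB in GFP cells (SD, n = 2). In LTR8B cells it had 5.60 ± 0.481 and 5.55 ± 1.19 CPM (SD, n = 4). NUDT4 (chromosome 12, 93377883 to 93408146, plus strand) had 66.8 and 64.4 CPM untreated and 64.5 and 81.0 CPM with IFNB in GFP cells, and passed in neither line (edgeR adjusted p = 0.748 and 0.868). Summed, NUDT4 and NUDT4B gave 70.7 ± 1.19 CPM untreated and 74.9 ± 11.5 CPM with IFNB in GFP cells (SD, n = 2), and 79.3 ± 11.3 and 75.2 ± 7.24 CPM in LTR8B cells (SD, n = 4). The sum was 105.9% of the untreated level in GFP cells, where NUDT4B alone was 42.7%. The log2 fold change of the sum was 0.083 (SE 0.14) in GFP cells. NUDT4 made up most of the sum, so the sum says little about NUDT4B alone.

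**Figure D3:**
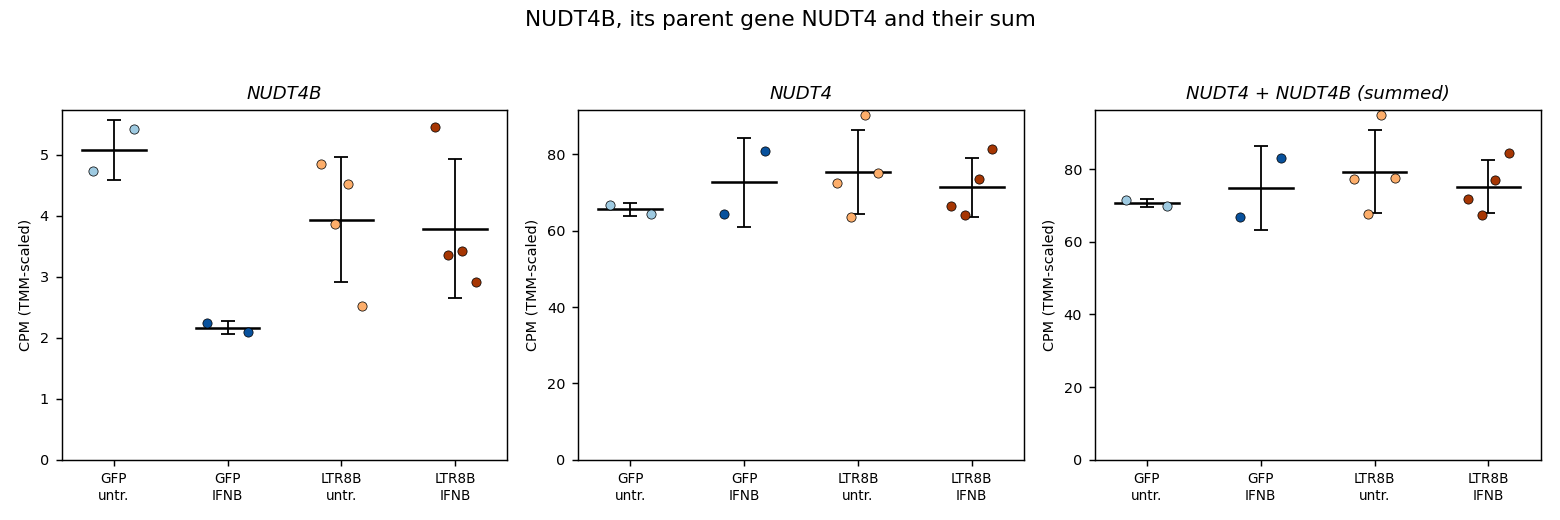
Level (CPM, TMM-scaled, axes from 0) of NUDT4B, of its parent gene NUDT4 and of the 2 summed, in every library, with mean and SD. NUDT4B is lower in both GFP IFNB libraries, and the sum, dominated by NUDT4, is not.

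SIPA1L2 (ENSG00000116991.10, chromosome 1, 232397965 to 232561558, minus strand) shares no word of 31 bases with another gene. In GFP cells it had 6.84 and 7.58 CPM untreated and 4.77 and 3.73 CPM with IFNB. The LTR8B cells had 8.71, 7.16, 8.24 and 6.58 CPM untreated and 7.45, 6.87, 6.10 and 6.26 CPM with IFNB, so the groups were apart in GFP cells and overlapped in LTR8B cells. The log2 fold changes were -0.76 (SE 0.18) and -0.20 (SE 0.12). In a list for Rap regulation, which holds Rap GTPases themselves as well as regulators, 17 genes were tested. Of these, 0 were lower and 1 was higher in each line, RASGRP3, an exchange factor that switches Rap and Ras on. RASGRP3 rose from 1.23 ± 0.136 to 13.4 ± 0.633 CPM in GFP cells (SD, n = 2) and from 1.08 ± 0.257 to 13.8 ± 1.12 CPM in LTR8B cells (SD, n = 4).

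SDHAF1 (ENSG00000205138.3, chromosome 19, 35995199 to 35996315, plus strand) has 1 exon and likewise shares no word with another gene. It had 7.60 and 8.34 CPM untreated and 4.29 and 5.27 CPM with IFNB in GFP cells. LTR8B cells had 7.10, 8.03, 6.46 and 6.63 CPM untreated and 5.87, 6.12, 6.43 and 6.41 CPM with IFNB. The groups were wide apart in GFP cells and nearly touched in LTR8B cells, and the log2 fold changes were -0.74 (SE 0.16) and -0.18 (SE 0.11). Of 18 tested genes for succinate dehydrogenase and LYR-motif proteins, 0 passed in either direction in either line, and their median log2 fold changes were -0.0086 and 0.01.

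OXLD1 (ENSG00000204237.5, chromosome 17, 81665036 to 81666635, minus strand) had 18.6 and 20.9 CPM untreated and 13.1 and 11.9 CPM with IFNB in GFP cells. The level in LTR8B cells was 17.98, 19.1, 17.4 and 15.1 CPM untreated and 16.1, 14.3, 18.7 and 12.1 CPM with IFNB, and these groups overlapped. The log2 fold changes were -0.66 (SE 0.16) and -0.19 (SE 0.11). OXLD1 overlaps CCDC137 head to head by 272 bases, and 13.9% of its words are in CCDC137 on the other strand. CCDC137 passed in neither line (edgeR adjusted p = 0.676 and 0.696).

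EYA1 (ENSG00000104313.20, chromosome 8, 71197433 to 71592025, minus strand) had the least RNA of the members, with a mean of 3.23 CPM. In GFP cells it had 4.20 and 4.33 CPM untreated and 2.81 and 3.23 CPM with IFNB. LTR8B cells had 3.60, 3.76, 3.55 and 3.81 CPM untreated and 2.30, 2.01, 3.33 and 1.80 CPM with IFNB. No IFNB library reached an untreated one in either line, and LTR8B IFNB replicate 3, the library with the fewest counts, came closest. The log2 fold changes were -0.50 (SE 0.23) and -0.67 (SE 0.17).

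Among 12 tested genes of the network of EYA1 and DACH1 and its targets, 1 was lower in GFP cells and 2 in LTR8B cells. MYC, a growth-promoting transcription factor, fell in GFP cells (log2 fold change -0.44, edgeR adjusted p = 0.0208), and MYC and SIX4 fell in LTR8B cells (-0.34 and -0.29, edgeR adjusted p = 0.00752 and 0.0466).

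FLG (ENSG00000143631.11, chromosome 1, 152302175 to 152325203, minus strand) had 5.74 and 5.98 CPM untreated and 3.004 and 4.53 CPM with IFNB in GFP cells. In LTR8B cells it had 8.35, 8.29, 9.44 and 8.999 CPM untreated and 5.87, 5.79, 5.78 and 5.25 CPM with IFNB. The groups were apart in both lines, and the LTR8B libraries with IFNB stood near the GFP libraries without it. IFNB left 64.2% and 64.7% of the untreated level, with log2 fold changes of -0.64 (SE 0.18) and -0.63 (SE 0.12). The GFP value moved to -0.37 without GFP IFNB replicate 1 and to -0.96 without GFP IFNB replicate 2.

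FLG lies wholly within FLG-AS1 on the other strand, with which it shares 7.19% of its words. FLG-AS1 had 38.4 ± 2.22 and 40.7 ± 7.85 CPM in GFP cells (SD, n = 2) and 36.6 ± 6.19 and 30.4 ± 2.13 CPM in LTR8B cells (SD, n = 4), and passed in neither IFNB contrast (edgeR adjusted p = 0.866 and 0.288). Without the counting strand, reads of the pair cannot be told apart where they overlap. Of 25 listed genes of the epidermal differentiation complex, 9 were tested and 0 passed with IFNB in either line. Of 15 keratinocyte markers, 3 had at least 1 CPM (KRT10, KRT15 and TGM1), KRT1 and KRT5 were at 0 in all libraries, and the summed level was 29.3 to 37.2 CPM.

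CENATAC (ENSG00000186166.9, named CCDC84 in GENCODE release 29, chromosome 11, 118998142 to 119015791, plus strand) was the member whose groups overlapped in GFP cells. There it had 5.82 and 5.61 CPM untreated and 4.96 and 6.37 CPM with IFNB, so the treated libraries lay on both sides of the untreated ones. CENATAC in LTR8B cells had 7.15, 5.72, 6.33 and 5.14 CPM untreated and 3.42, 4.34, 4.64 and 4.13 CPM with IFNB, with no overlap. The log2 fold changes were -0.02 (SE 0.19) and -0.57 (SE 0.14). CENATAC overlaps RPS25 on the other strand by 80 bases. RPS25 had a mean of 663.6 CPM and passed in neither line (edgeR adjusted p = 0.849 and 0.983). Whether the overlap bears on the CENATAC values was not tested. Of 18 tested genes of the minor spliceosome, 0 passed in either line. Nor did any of 9 genes of diphosphoinositol phosphate metabolism, the pathway of NUDT4B. In a list of 24 genes for G-patch proteins, which also held the helicases DHX15 and DHX16, 0 were lower and 1 was higher in each line. The higher gene was the cap methyltransferase CMTR1 (log2 fold change 1.08 and 1.07).

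**Figure D4:**
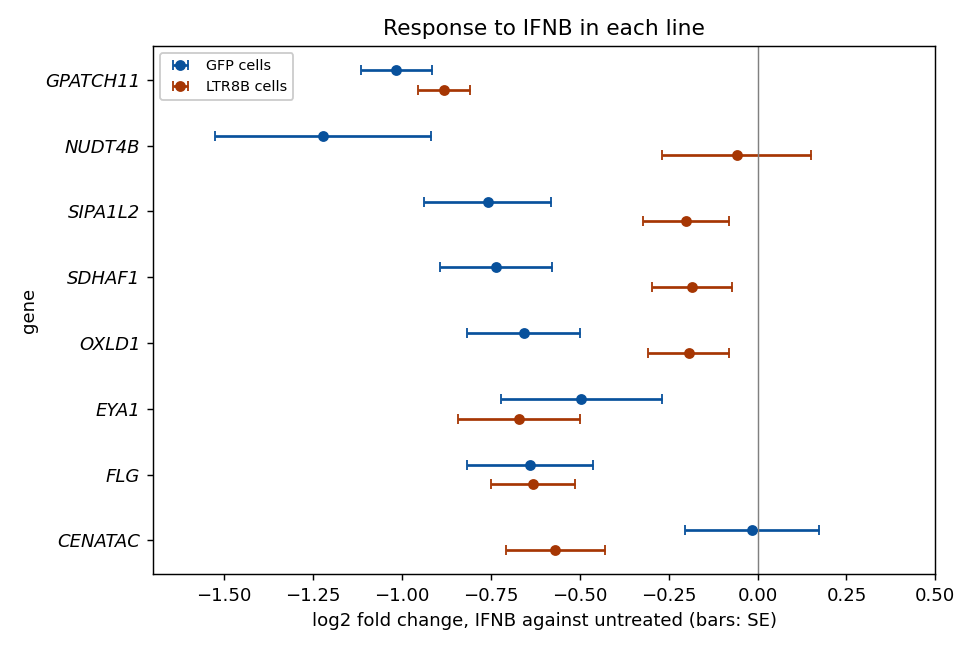
Log2 fold change with IFNB of each gene in GFP and in LTR8B cells, with error bars of the SE. All 8 values are below 0 in both lines, NUDT4B is lower in GFP cells than in LTR8B cells, and CENATAC is the reverse.

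The response differed in size between the lines for some members, in values only, since both responses chose them. The difference, LTR8B minus GFP response on the log2 scale, was 1.16 (SE 0.37) for NUDT4B, 0.56 (SE 0.22) for SIPA1L2, 0.55 (SE 0.19) for SDHAF1 and 0.46 (SE 0.20) for OXLD1. It was -0.55 (SE 0.23) for CENATAC, -0.17 (SE 0.28) for EYA1 and 0.01 (SE 0.21) for FLG. Over all genes the test of that difference called 0 (0.0%) by edgeR, by DESeq2 and by limma-voom, while 489 (2.98%) were at an unadjusted p under 0.05 by edgeR, 372 by DESeq2 and 501 by limma-voom. No member was therefore shown to respond differently in the 2 lines.

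The guide effect averaged over both treatments was not used to choose the genes and could be tested. FLG alone passed, with a log2 fold change of 0.59 (SE 0.11, 95% interval 0.36 to 0.81, edgeR adjusted p = 0.00669), so that 1 of 8 members was called against 351 of all tested genes (2.14%), 188 of them higher (1.15%). FLG in LTR8B cells was 149.6% of its GFP level untreated and 150.6% with IFNB, and every LTR8B library was above every GFP library of the same treatment, as for 503 of all genes (3.07%). The log2 difference between guides with IFNB, 0.59, moved to 0.33 without GFP IFNB replicate 1 and to 0.92 without GFP IFNB replicate 2. The call on the average ended without GFP IFNB replicate 1, the library with the lowest FLG level (log2 fold change 0.46, edgeR adjusted p = 0.0513). KRT15, a keratin and the keratinocyte marker that passed in this contrast, went the other way (-0.56, edgeR adjusted p = 0.0106), as did S100A6 of the epidermal differentiation complex (-0.23, edgeR adjusted p = 0.0385). In the same contrast 2 of 7 tested fibroblast markers were lower, and of 5 tested haematopoietic markers 1 was lower and 1 higher. The haematopoietic markers, of which PTPRC was near 0 and HBB at 0, summed to 909.5 to 982.8 CPM in GFP and 1026 to 1232 CPM in LTR8B libraries, most of it LCP1. The part of these markers in the FLG value was not tested.

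The other 7 members did not pass between guides, which does not show that they were equal. SIPA1L2 had a log2 fold change of 0.37 (95% interval 0.15 to 0.60, edgeR adjusted p = 0.0865), EYA1 of -0.30 (-0.60 to -0.0034, edgeR adjusted p = 0.310) and GPATCH11 of -0.15 (-0.27 to -0.02, edgeR adjusted p = 0.255). The intervals were -0.16 to 0.62 for NUDT4B, -0.10 to 0.30 for SDHAF1, -0.16 to 0.26 for OXLD1 and -0.43 to 0.06 for CENATAC.

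**Figure D5:**
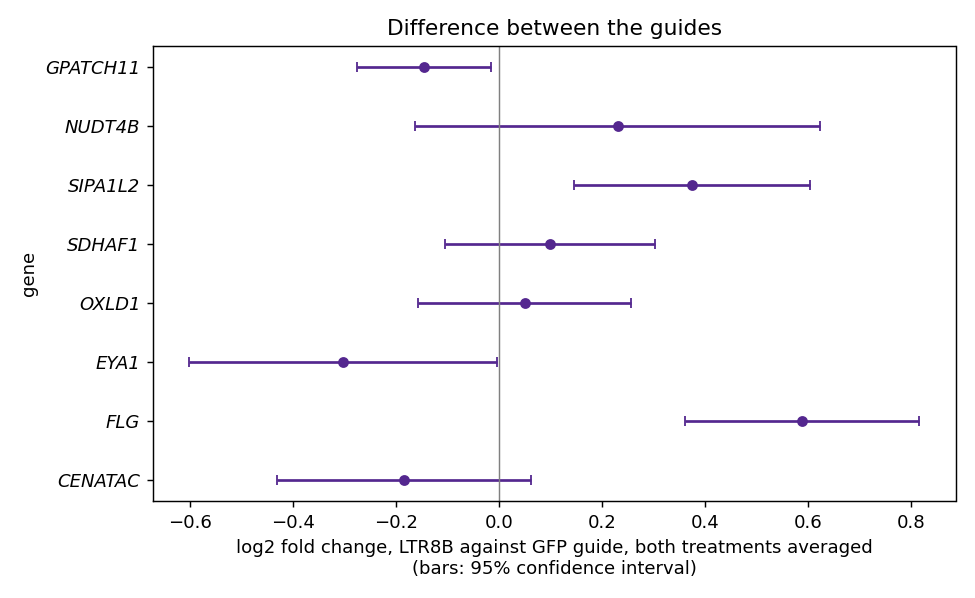
Log2 fold change between LTR8B and GFP cells, averaged over both treatments, with 95% confidence intervals. FLG has the highest value at 0.59, and the intervals of NUDT4B, SDHAF1, OXLD1 and CENATAC include 0.

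Genes with a pattern most like a member's were ranked by Pearson's r of log2(CPM + 1) over the 12 libraries, which share treatment and line, among 12988 genes. GPATCH11 was nearest to IER3 (0.957), GPR39 (0.943) and ANKZF1 (0.931), and FLG to CITED2 (0.952), SHROOM3 (0.932) and ARID2 (0.921). CENATAC was nearest to ANKRD20A19P (0.931) and SDHAF1 to ADAMTS16 (0.907). URB1-AS1 was the nearest gene to NUDT4B (0.922) and the second nearest to OXLD1 (0.914), and GID8 was the third nearest to both NUDT4B (0.906) and SIPA1L2 (0.870).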

How the data were processed

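PolyA RNA of 12 libraries was used as whole-number counts per gene in the table the authors deposited. Per the submitters' processing notes, Salmon 0.13.1, DESeq2 1.38.3 and hg38 were used; their roles, and strand use, are not given in the sources used here. A second, normalized table was not used. Of 60669 identifiers, 42013 had a symbol and 58437 a GENCODE release 29 position (GRCh38), and 25271 were at 0 in all libraries. Columns were matched to samples by the labels, with 0 left over. Total counts of 12404270 to 28801579 per library limit precision for the low members.

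Counts were fitted with edgeR 4.0.16 (R 4.3.3): filterByExpr (minimum count 10, minimum total 15), TMM, 1 mean per group, robust quasi-likelihood, and Benjamini-Hochberg adjustment over all 16393 genes at 0.05. The script was tested on simulated data. SE is the log2 fold change divided by the square root of F. Replicates differed by more than counting noise (chi-square per degree of freedom 2.62 to 15.5). DESeq2 1.42.0, limma-voom (limma 3.58.1), no filter, fits of 1 line, a replicate block and leaving out each library were alternatives. Python 3.11.15, pandas 2.3.3, NumPy 2.4.6 and matplotlib 3.10.9 were used for tables and plots.

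The members and the lists were chosen with earlier results of these data known. Genes named are the members, their genomic partners, the 3 nearest by pattern, list genes past the threshold, and the genes lower in both lines. Some genes that this rule names are not reported here. Words are 31-base stretches of GENCODE release 29 transcripts.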

Additional observations from a re-analysis of the deposited data

Results flagged for a closer look

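FLG in LTR8B IFNB replicate 4 had 5.25 CPM, a sample apart from the other 3 libraries of its group, which lay at 5.78 to 5.87 CPM. The gap to the nearest library exceeded Dixon's 95% critical value of 0.829 as a share of the group's range. It was the 1 group so marked among 16 groups of 4 libraries tested over the 8 members, and at that level chance alone marks about 1 in 20 groups.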

How the results depend on the processing

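With IFNB in GFP cells, the 22 lower genes became 54 with no filter on low counts and 83 with a replicate block, and 4 to 31 when each library was left out. The 5 members past the threshold became 1 to 5 when each library was left out. That number was 2 and 1 on leaving out the first and the second GFP untreated library, and 2 and 3 on leaving out GFP IFNB replicate 1 and replicate 2. When the NUDT4B row was summed with NUDT4, the log2 fold change in GFP cells reversed from that of NUDT4B to 0.083. With NUDT4P2 as well, a sum added after seeing the data, the value was 0.072. In untreated GFP cells NUDT4 made up 65.6 of the 70.7 CPM of the first sum. The sign of either sum therefore says little about NUDT4B alone. In LTR8B cells the 79 lower genes became 165 with no filter, 223 with the block and 40 to 85 when each library was left out. The 4 members became 2 to 4, with 2 without LTR8B untreated replicate 1 and 2 without LTR8B IFNB replicate 1.

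Between guides, the 163 lower genes became 249 by DESeq2, 382 with no filter, 72 with the replicate block and 27 to 223 when each library was left out, and the 188 higher genes 341, 393, 109 and 66 to 238. The 1 member called (FLG) became 2 with no filter, with SIPA1L2 added (edgeR adjusted p = 0.0497), and 0 to 1 when each library was left out. For the difference of the responses, 0 lower and 0 higher genes became 9 and 4 with no filter, 3 and 1 with the replicate block, and 0 to 1 lower when each library was left out. The replicate numbers were not taken as pairs in the main fit. Deviations of same-numbered untreated and IFNB libraries correlated at 0.164, 0.125, 0.0375 and 0.157 in LTR8B cells and at 0.097 in GFP cells. The limit set for pairing was 0.1, and other-numbered LTR8B libraries gave -0.122 to 0.0525. These values do not settle whether the numbers are pairs. FLG kept its guide call under the block (edgeR adjusted p = 0.0496). The fold changes of GPATCH11 stayed at -1.04 to -0.997 in GFP cells and -0.93 to -0.83 in LTR8B cells over these settings. The cause of these shifts was not tested. Depth limits EYA1 and NUDT4B most among the members, at 34 to 111 and 42 to 135 counts per library.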
